A study of Homo sapiens with 6 samples.

Results

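Circular RNAs (circRNAs) are closed rings of exons, made when the splicing machinery joins the end of a downstream exon back to the start of an upstream one. The join, called a back-splice junction, identifies the ring, and one gene can give many rings by joining different pairs of exons. Rings lack free ends and are known to outlast linear transcripts and to collect in neurons. The circRNAs described here are those of hosts with many rings: rows of the forebrain circRNA table whose host gene stands in 20 or more rows, with a genomic span of 1000 to 50000 bases, and whose host is neither a numbered ZNF gene nor listed in the lncRNA table. They number 3675 of the 31559 circRNAs of the table, from 171 of its 7292 hosts.

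The libraries were made from neurons of the forebrain type derived from H9, an established human embryonic stem cell line, at day 26, wild type and untreated in all groups. RNA of the cytoplasm (2 replicates), of the nucleus (2 replicates) and of total cells (2 replicates) was depleted of ribosomal RNA and sequenced as stranded libraries, in a study titled after the export of A-rich circRNAs from the nucleus. The labels call the cells both progenitors and neurons, and nothing in them says whether replicates were separate cultures, so the p-values below reflect differences among 6 libraries, which may be technical. In bulk RNA of this kind, fewer cells of a type and less RNA per cell cannot be told apart.

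All 9 forebrain progenitor markers looked at, PAX6 and VIM among them, and all 8 neuron markers, DCX and STMN2 among them, were at 1 FPKM or more in total cell RNA. None of the 5 glial markers reached that level (highest 0.837 FPKM), and of 4 pluripotency markers LIN28A (5.26 FPKM) and DPPA4 did, while POU5F1 was at 0.00463 FPKM. The mitochondrial transcript MT-CO2 had 2148 and 1665 FPKM in the cytoplasm libraries, against 146 and 154 FPKM in the nucleus libraries. The nuclear RNA MALAT1 had 34.6 and 34.5 FPKM in cytoplasm, 63.4 and 77.4 FPKM in nucleus, and 668 and 838 FPKM in total cells. Total cells thus lay far above both fractions for MALAT1, and cell type markers also fell outside the fractions in both directions. The neuron marker MAP2 had 12.5 and 11.8 FPKM in cytoplasm, 6.52 and 8.17 in nucleus, and 61.6 and 75.1 in total cells. The progenitor marker HES5 had 29.5 and 31.3, 17.4 and 18.1, and 6.66 and 7.23 FPKM. The cause of these differences was not tested. All circRNA values were whole multiples of the value of 1 read in their library, and the reads recovered in this way for the many-ring hosts came to 5982 and 6792 in cytoplasm, 1456 and 1728 in nucleus, and 3302 and 4337 in total cells.

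The junctions of the rings on which the results turn are shown first, 25 bases from each side, with the end of the last exon in lower case and the start of the first exon in capitals (5′ to 3′, exon numbers and sequence from the principal GENCODE transcripts, GRCh38). All lie in coding sequence. UBAP2 is shown because the share of its dominant ring differed between the fractions, PHC3 because its share was among those with the next lowest p-values, UBA2 because its 4 leading rings combine 2 start exons with 2 end exons, and the others as the leading rings of hosts ruled by 1 ring or by a pair. UBA2 and TNPO3 were chosen after their values were seen, as was ANKRD17, described further on.
UBAP2 exons 7 to 8, chr9:33971651-33973237, minus strand: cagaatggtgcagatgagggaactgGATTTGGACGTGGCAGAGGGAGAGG
UBAP2 exons 9 to 12, chr9:33953285-33963791, minus strand: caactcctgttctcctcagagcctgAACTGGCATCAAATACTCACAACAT
UBAP2 exons 3 to 6, chr9:33986760-33998864, minus strand: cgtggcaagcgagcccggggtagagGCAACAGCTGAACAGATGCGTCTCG
PHC3 exons 5 to 6, chr3:170145423-170149244, minus strand: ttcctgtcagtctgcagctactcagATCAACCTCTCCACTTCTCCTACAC
PHC3 exons 5 to 7, chr3:170136419-170149244, minus strand: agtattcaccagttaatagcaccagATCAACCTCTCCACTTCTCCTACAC
UBA2 exons 2 to 6, chr19:34430576-34438766, plus strand: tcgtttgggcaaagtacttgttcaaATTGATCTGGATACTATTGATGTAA
UBA2 exons 2 to 5, chr19:34430576-34434968, plus strand: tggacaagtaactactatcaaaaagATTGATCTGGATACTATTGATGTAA
UBA2 exons 3 to 6, chr19:34431861-34438766, plus strand: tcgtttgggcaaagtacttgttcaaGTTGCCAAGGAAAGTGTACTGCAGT
UBA2 exons 3 to 5, chr19:34431861-34434968, plus strand: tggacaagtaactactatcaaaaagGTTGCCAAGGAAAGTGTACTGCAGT
TNPO3 exons 2 to 4, chr7:129014979-129018157, minus strand: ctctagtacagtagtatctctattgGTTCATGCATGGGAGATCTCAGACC
ATRNL1 exons 2 to 5, chr10:115120185-115129535, plus strand: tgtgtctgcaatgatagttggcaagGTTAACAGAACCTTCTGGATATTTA
ATRNL1 exons 22 to 24, chr10:115461941-115469329, plus strand: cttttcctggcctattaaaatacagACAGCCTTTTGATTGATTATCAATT
XPO1 exons 4 to 5, chr2:61522611-61526521, minus strand: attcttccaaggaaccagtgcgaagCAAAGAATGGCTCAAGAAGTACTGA
RERE exons 6 to 8, chr1:8541214-8557523, minus strand: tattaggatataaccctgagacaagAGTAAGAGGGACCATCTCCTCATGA
RERE exons 6 to 9, chr1:8508627-8557523, minus strand: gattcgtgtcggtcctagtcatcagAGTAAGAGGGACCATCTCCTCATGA
The capitals repeat between the PHC3 pair and between the RERE pair, whose rings start at one exon and end at different ones. In UBA2 each start and each end occurs in 2 of the 4 junctions.

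Most of these rings were rare. Of the 3675 circRNAs, 1663 (45.3%) were supported by 1 read over the 6 libraries and 441 by 10 reads or more. A read was found in one or both libraries for 2464 of them in cytoplasm, 1151 in nucleus and 1899 in total cells, and in both libraries for 752, 231 and 483. A host had a median of 25 rows and 93 back-splice reads over the 6 libraries (range 11 to 932). The highest row counts belonged to BIRC6, a giant ubiquitin-conjugating inhibitor of apoptosis, with 89 rows, and to SYNE2, a nuclear envelope spectrin-repeat protein, with 60 rows. At the edge of the rule, the 21 hosts with 20 rows had 23 to 287 reads (median 95), and the 30 hosts with 19 rows had 27 to 467 reads (median 68). The smallest span kept was 1000 bases and the nearest left out 988 bases, and the largest kept was 49987 bases and the nearest left out 50053 bases.

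The dominant ring of a host was taken as its ring with the highest mean level in the total cell libraries, and its share is its percentage of the back-splice reads of all the host's rings that met the span rule. Over the 171 hosts the median share was 25.6% in cytoplasm, 25% in nucleus and 31.8% in total cells. The total cell value is raised by the choice itself, since the ring was picked as the highest there, and many hosts had few reads. In 27 hosts 1 ring held at least 50% of the reads of all libraries, in 45 hosts it took 2 rings and in 99 hosts 3 rings or more. The 3 leading rings together held a median of 58.1% of a host's reads (range 25% in SMARCC1 to 98.1% in ATRNL1).

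For the 35 hosts with a mean of at least 30 reads per library, the median dominant share was 44.8% in cytoplasm, 48.4% in nucleus and 49.3% in total cells. The median gap between replicates was 4.55 percentage points in cytoplasm, 9.50 in nucleus and 5.15 in total cells, and the median gap between cytoplasm and nucleus was 7.66 points. The replicate gaps are between single libraries and the last between pooled fractions. The Simpson concentration, the chance that 2 reads drawn from a host come from one ring, had a median of 0.310 in cytoplasm, 0.279 in nucleus and 0.288 in total cells. The ring with most reads was the same in all fractions in 25 of these 35 hosts. Across the 35 hosts the share in cytoplasm followed that in nucleus (Spearman correlation 0.83, both from libraries that share hosts and differ in depth).

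Hosts with fewer rows had higher dominant shares at similar depth. With 20 or more rows the median share was 44.8% in cytoplasm and 48.4% in nucleus (35 hosts), with 10 to 19 rows it was 58.5% and 61.5% (45 hosts), and with 5 to 9 rows 88.0% and 90.3% (24 hosts). Hosts with 2 to 4 rows had 98.6% and 97.1% (13 hosts). The median number of reads per host was 292, 244, 274.5 and 229 in these classes. The row count and the share describe one set of reads, and this order is given as a description.

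**Figure D1:**
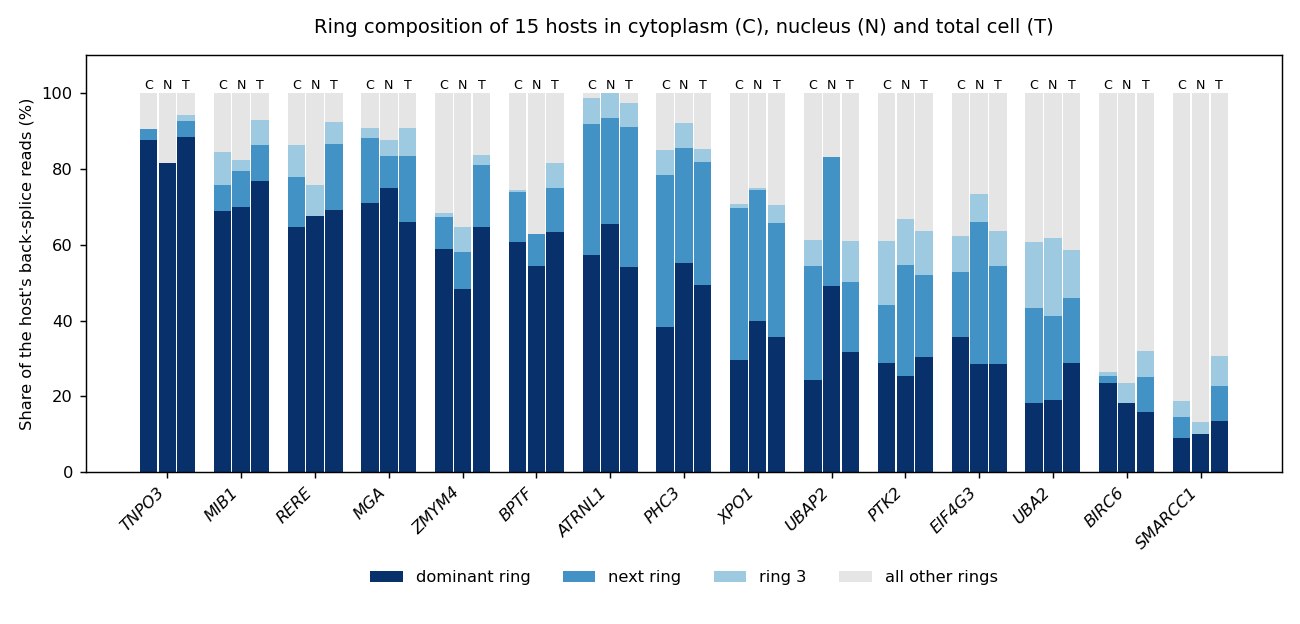
Share of each of 15 hosts' back-splice reads (vertical axis, percent, 2 libraries pooled per fraction) held by the dominant, next and following ring (ring 3), ordered by total cell level, and by all other rings, in cytoplasm (C), nucleus (N) and total cells (T). The dominant ring held 87.6%, 81.4% and 88.2% of the TNPO3 reads and 9.14%, 10% and 13.6% of the SMARCC1 reads.

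Some hosts were ruled by 1 ring. TNPO3, the importin that carries splicing factors of the SR family into the nucleus, had 22 rows, but its ring of exons 2 to 4 (432 bases) held 72 of 82 and 84 of 96 reads in cytoplasm, 10 of 14 and 25 of 29 reads in nucleus, and 28 of 32 and 32 of 36 reads in total cells. The shares, 87.6% (exact 95% interval 81.9 to 92.1), 81.4% (66.6 to 91.6) and 88.2% (78.1 to 94.8), overlapped in their intervals, which cover counting error only, as do those that follow. Of its 21 rings, 14 had 1 read in all.

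MIB1, a ubiquitin ligase that acts on Notch ligands, held 68.9% (62.6 to 74.6) of its reads in the ring of exons 2 to 6 in cytoplasm, 69.9% (58.0 to 80.1) in nucleus and 76.6% (68.7 to 83.4) in total cells. RERE, a nuclear receptor co-regulator, had 64.5%, 67.6% and 69.0% in its ring of exons 6 to 8. RERE's next ring, exons 6 to 9, adds 1 exon and had 10 and 17 reads in cytoplasm, 0 and 0 in nucleus, and 13 and 17 in total cells, against 59 and 72, 12 and 13, and 35 and 83 reads for the dominant ring. MGA, a transcription factor that pairs with MAX, had 70.9% in cytoplasm, 75% in nucleus and 65.8% in total cells in a ring made of exon 2 alone (1131 bases). ZMYM4, a zinc finger protein, had 58.9%, 48.4% and 64.5% in the ring of exons 3 to 5. BPTF, a subunit of the NURF chromatin remodeller, had 60.6%, 54.3% and 63.3% in a ring of 8 exons (23 to 30, 2200 bases), and rings starting at its exon 23 held 80.5% of all BPTF reads. In each of these 5 hosts the intervals of cytoplasm and nucleus overlapped.

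Other hosts split their reads between a pair of rings. ATRNL1, an attractin-like membrane protein, gave more ring reads than any other of the 171 hosts (932). Its ring of exons 2 to 5 had 125 and 142 reads in cytoplasm, 23 and 26 in nucleus, and 108 and 103 in total cells. Its ring of exons 22 to 24, which shares no exon with the first, had 90 and 71, 13 and 8, and 65 and 79 reads. Together with the ring of exons 2 to 7 they held 98.1% of the host's reads. The first ring's share was 57.2% (52.5 to 61.7) in cytoplasm, 65.3% (53.5 to 76.0) in nucleus and 54.1% (49.0 to 59.1) in total cells.

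XPO1, the exporter of proteins with a nuclear export signal, had the ring of exons 4 to 5 with 50 and 85 reads in cytoplasm, 24 and 32 in nucleus, and 32 and 37 in total cells, and the ring of exons 3 to 5 with 73 and 110, 21 and 27, and 18 and 40 reads. Both end at exon 5, and 69.5% of all XPO1 reads used that end. The ring of exons 3 to 5 led in cytoplasm and that of exons 4 to 5 in nucleus. PHC3, a subunit of a polycomb complex, had a like pair at its start: exons 5 to 6 with 45 and 38, 23 and 19, and 34 and 36 reads, and exons 5 to 7 with 44 and 43, 12 and 11, and 23 and 23 reads. Rings starting at exon 5 held 82.1% of PHC3 reads.

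Reads of a last set of hosts were spread over many rings. UBA2, a subunit of the enzyme that activates SUMO, had 4 rings that combined exon 2 or 3 with exon 5 or 6. Exons 2 to 6 had 16 and 35 reads in cytoplasm, 4 and 9 in nucleus, and 11 and 14 in total cells. Exons 2 to 5 had 38 and 32, 7 and 8, and 6 and 9 reads. Exons 3 to 6 had 29 and 19, 8 and 6, and 6 and 5 reads, and exons 3 to 5 had 8 and 8, 5 and 3, and 4 and 6 reads. The longest of the 4 led in total cells, and its neighbour of exons 2 to 5 led in cytoplasm and, narrowly on pooled reads, in nucleus.

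PTK2, the focal adhesion kinase, had a dominant share of 28.7% (24.7 to 33.0) in cytoplasm, 25.3% in nucleus and 30.4% (24.3 to 37.0) in total cells. EIF4G3, a scaffold of translation initiation, had 35.6%, 28.6% and 28.6%. BIRC6 had 23.6% (17.7 to 30.5), 18.2% (9.08 to 30.9) and 16.0% (9.43 to 24.7), needed 7 rings to reach 50% of its reads, and had 1 read for 37 of its 73 rings. SMARCC1, a core subunit of the BAF chromatin remodeller, had 9.14% (5.41 to 14.2), 10% (2.11 to 26.5) and 13.6% (7.25 to 22.6) and needed 8 rings. SYNE2 had 14.7%, 23.1% and 15.3%.

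**Figure D2:**
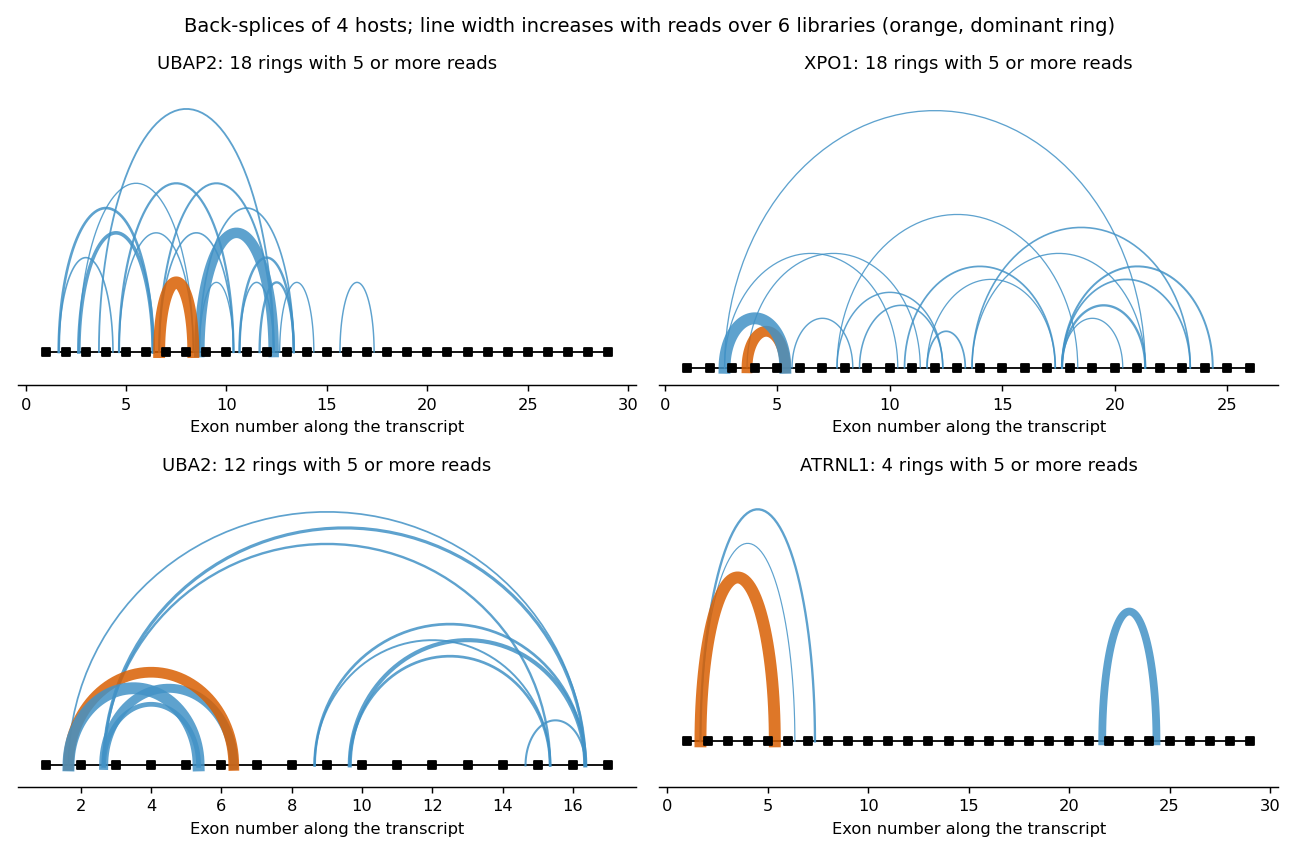
Back-splices with 5 or more reads in UBAP2, XPO1, UBA2 and ATRNL1, drawn as arcs from the first to the last exon of the ring (horizontal axis, exon number; arc height has no unit). Line width increases with the reads over 6 libraries, and the dominant ring is orange. XPO1's leading pair ended at 1 exon, and ATRNL1's leading pair shared none.

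Whether the dominant share differed between the fractions was tested in the 117 hosts of the whole table that had 2 or more rings and a mean of at least 30 reads per library, 35 of them many-ring hosts, by limma on the log2 odds of dominant against other reads with Benjamini-Hochberg adjustment. This measure needs no scaling between libraries. The share of UBAP2, a ubiquitin-associated domain protein, fell in cytoplasm, and no other of the 35 hosts passed (0 higher and 1 lower at adjusted p below 0.05, against a background of 0.0% of 117 hosts higher and 0.855% lower, the single lower call being UBAP2 itself). At an unadjusted p below 0.05, 3 of the 35 were higher and 3 lower. The cytoplasm libraries did not overlap the nucleus libraries in 11 of the 35 hosts with the higher share in cytoplasm and in 8 with the lower (31.4% and 22.9%, against 19.7% and 19.7% of all 117). The median log2 odds ratio was 0.01 over the 35 hosts and 0.13 over all 117.

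The UBAP2 ring of exons 7 to 8 (159 bases) had 42 of 160 and 36 of 162 reads in cytoplasm, 28 of 53 and 21 of 47 reads in nucleus, and 33 of 102 and 41 of 131 reads in total cells. Its share was thus 26.2% and 22.2% in cytoplasm, against 52.8% and 44.7% in nucleus, with total cells between them at 32.4% and 31.3%. The libraries of the fractions did not overlap, and the log2 odds ratio was -1.57 ± 0.37 (SE, limma adjusted p = 0.0285). Its level did not pass the test, at 1.91 ± 0.26 FPB in cytoplasm and 1.87 ± 0.62 FPB in nucleus (SD, n = 2 each; FPB is the unit of the deposited circRNA table), a log2 fold change of 0.06 ± 0.30 (SE, limma adjusted p = 0.858).

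All other UBAP2 rings together had 118 and 126 reads in cytoplasm, 25 and 26 in nucleus, and 69 and 90 in total cells. Exons 9 to 12 had 47 and 50 reads in cytoplasm, 17 and 17 in nucleus, and 16 and 27 in total cells (log2 fold change of the level 0.84 ± 0.30, limma adjusted p = 0.051). Exons 3 to 6 had 13 and 9 reads in cytoplasm, 0 and 0 in nucleus, and 12 and 13 in total cells, and its level rose in cytoplasm (limma adjusted p = 0.00668). The call for the share of UBAP2 was lost in every fit without 1 library (limma adjusted p = 0.0604 to 0.415, the last without nucleus replicate 1, log2 odds ratio -1.33), and with cytoplasm and nucleus libraries alone (0.112). It also failed with no weights for read number (0.067) and when the ring was set against the next ring of UBAP2 only (log2 odds ratio -0.82, limma adjusted p = 0.397, a comparison chosen after the values were seen).

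Hosts that missed the threshold are given by their values. ANKRD17, an ankyrin-repeat RNA-binding protein, had its dominant ring, made of exon 29 alone (1634 bases), at 25 of 51 and 27 of 65 reads in cytoplasm, 0 of 15 and 2 of 15 in nucleus, and 27 of 56 and 22 of 44 in total cells. The 0 of 15 reads allow a share of up to 20%. The log2 odds ratio was 2.61 ± 0.89 (SE, limma adjusted p = 0.157), and edgeR on the recovered reads put it at an adjusted p of 0.0442. The level of this ring rose in cytoplasm, 1.27 ± 0.04 FPB against 0.0678 ± 0.0959 FPB in nucleus (SD, n = 2 each, limma adjusted p = 0.00121). PHC3 had 40.9% and 35.5% in cytoplasm, against 59.0% and 51.4% in nucleus (log2 odds ratio -0.98 ± 0.38, limma adjusted p = 0.263). XPO1 had 27.2% and 31.1%, against 39.3% and 40.5% (-0.67 ± 0.33, limma adjusted p = 0.323).

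SLC4A7, a sodium bicarbonate cotransporter, stood apart in total cells, the libraries from which the dominant ring was chosen. Its ring of 18 exons (8 to 25, 2548 bases) had 11 of 64 and 9 of 77 reads in cytoplasm, 5 of 20 and 8 of 24 in nucleus, and 25 of 52 and 44 of 88 in total cells. The total cell shares, 48.1% and 50%, lay above those of both fractions, which were 17.2% and 11.7% in cytoplasm and 25% and 33.3% in nucleus. The opposite held for PCCA, a subunit of propionyl-CoA carboxylase, which was chosen after its values were seen: its ring of exons 9 to 12 had 71.8% and 68.1% in cytoplasm, 63.2% and 61.1% in nucleus, and 44.1% and 44.8% in total cells. In 12 of the 35 hosts the total cell share lay between those of cytoplasm and nucleus, in 12 above both and in 11 below both. The cause of total cell shares outside the range of the fractions was not tested.

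**Figure D3:**
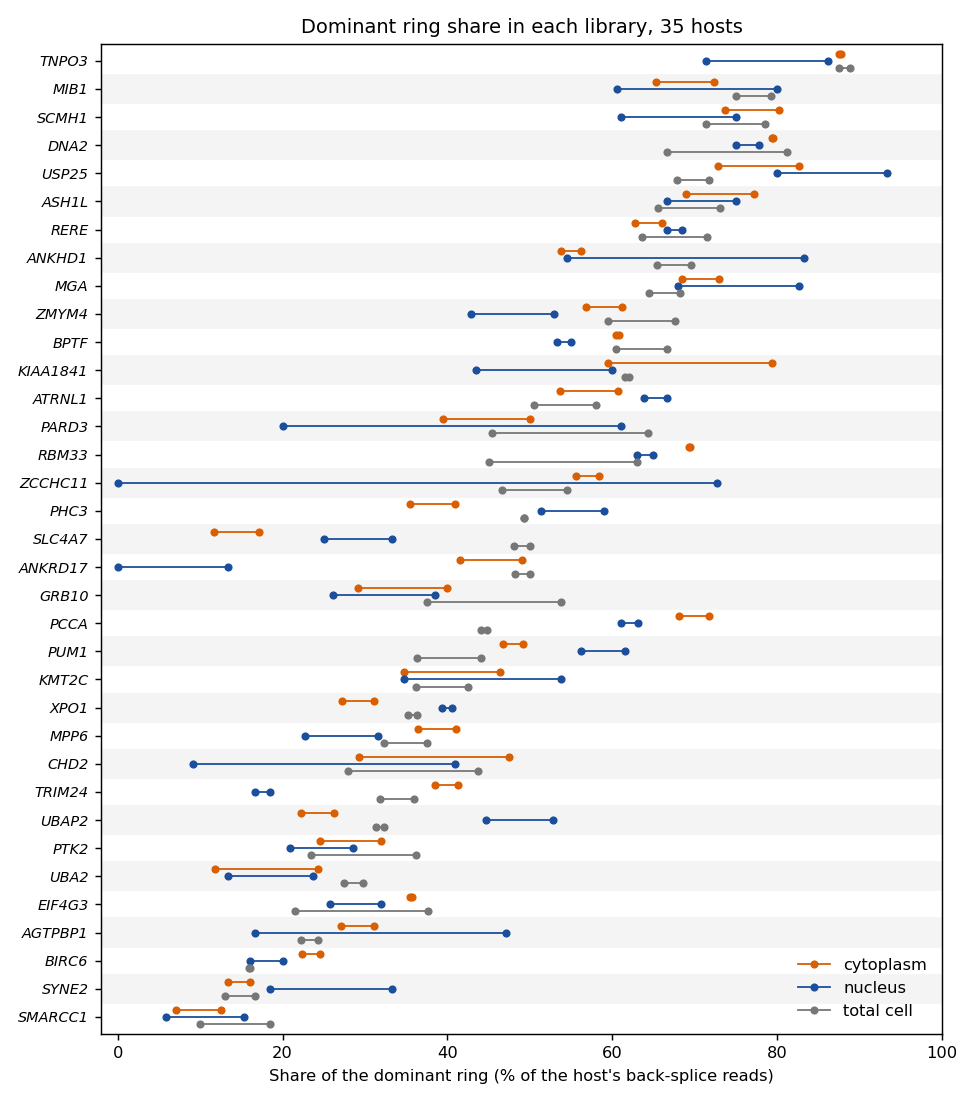
Dominant ring share (horizontal axis, percent of the host's back-splice reads) in each library of cytoplasm, nucleus and total cells for the 35 hosts with a mean of at least 30 reads, ordered by the total cell share; each dot is a library and lines join the 2 replicates. UBAP2 is the host whose shares, 26.2% and 22.2% in cytoplasm against 52.8% and 44.7% in nucleus, passed the test.

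Single ring levels were compared on log2(FPB + 0.123), the added value being that of 1 read in the library where a read is worth most. Of the 3675 rings, 117 passed the filter on low values (mean of at least 3 times that value), from 71 hosts, in each of which the dominant ring was among them, while 100 hosts had none. These 117 rings held 46.1% of the reads. In cytoplasm 50 rose and 0 fell (limma, adjusted p below 0.05; 64 and 0 at an unadjusted p below 0.05, 48 and 0 by edgeR), which is 42.7%, against 30.9% higher and 0.328% lower of all 914 rings tested. The median log2 fold change was 1.20 over the 117 rings and 1.05 over the 914. The 914, unlike the 117, are not limited by span or host. The cytoplasm libraries were above both nucleus libraries for 92 rings and below both for 1 (78.6% and 0.855%, against 74.4% and 2.41% of all 914). Since a ring could pass the filter through cytoplasm alone, these counts describe the rings tested and not all members.

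The direction rests on the deposited scale. FPKM values of the host gene table were themselves higher in cytoplasm for most genes, and with libraries scaled by the medians of that table, which moves cytoplasm against nucleus by 1.26 on the log2 scale, 0 of the 117 rings passed by limma in either direction (11 higher and 4 lower at an unadjusted p below 0.05) and their median was 0.22. Without cytoplasm replicate 1 the count on the deposited scale was 3 (ATRNL1 exons 2 to 5, SCMH1 exons 9 to 10 and BPTF exons 23 to 30). Without cytoplasm replicate 2 it was 2, both of them ATRNL1 rings.

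The ring of ATRNL1 exons 22 to 24 had 3.95 ± 0.76 FPB in cytoplasm and 0.807 ± 0.374 FPB in nucleus (SD, n = 2 each), a log2 fold change of 2.18 ± 0.30 (SE, limma adjusted p = 0.000399). Among called rings whose mean reached 5 filter units, that of ZMYM4 exons 3 to 5 came next (1.92 ± 0.32). The ring of ATRNL1 exons 2 to 5 had 6.53 ± 0.41 FPB in cytoplasm, against 1.83 ± 0.09 FPB in nucleus, and 11.7 ± 2.2 FPB in total cells (1.77 ± 0.20). SCMH1 exons 9 to 10 (1.73 ± 0.30) and PTK2 exons 17 to 21 (1.70 ± 0.34) followed. SCMH1 is a polycomb-group protein. Of the rings with the highest means, MIB1 exons 2 to 6 had a log2 fold change of 1.06 ± 0.23, BPTF exons 23 to 30 of 1.59 ± 0.27, RERE exons 6 to 8 of 1.65 ± 0.31, MGA exon 2 of 1.52 ± 0.27 and XPO1 exons 3 to 5 of 1.24 ± 0.31, all of them called. With libraries scaled by the mRNA medians the MIB1 value became -0.14. The other XPO1 ring, exons 4 to 5, did not pass (0.60 ± 0.28, limma adjusted p = 0.101; -0.61 with that scaling). SLC4A7 exons 8 to 25 did not pass either, at 0.490 ± 0.082 FPB in cytoplasm and 0.477 ± 0.092 FPB in nucleus (0.03 ± 0.39, limma adjusted p = 0.945).

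**Figure D4:**
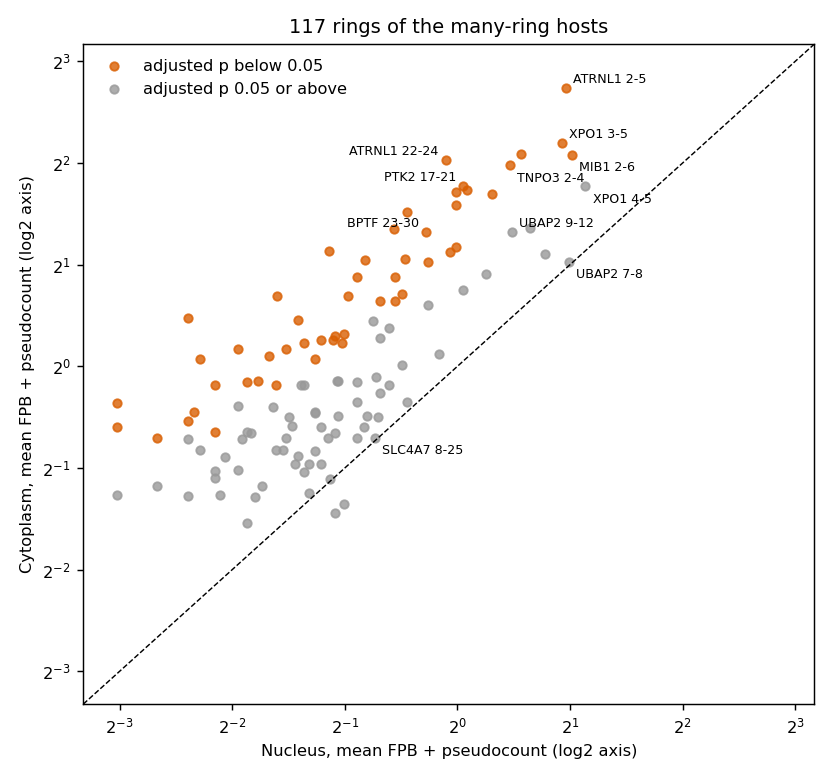
Mean level of the 117 tested rings in cytoplasm (vertical axis) against nucleus (horizontal axis), both as FPB plus the pseudocount on log2 axes; each dot is a ring, labels give host and exons, and the dashed line marks equal levels. 50 rings passed the test (orange) and all lie above the line; UBAP2 exons 7 to 8 and SLC4A7 exons 8 to 25 lie close to it.

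The rings of a host were then summed. Of 164 hosts tested, 97 had a higher sum in cytoplasm and 0 a lower one (limma; 123 and 0 at an unadjusted p below 0.05, 95 and 0 by edgeR). That is 59.1%, against 44.1% higher and 0.0973% lower of all 1028 hosts tested, with a median log2 fold change of 1.23 against 1.15. Hosts were chosen by rows found in any library, and 2464 of their rings had a read in cytoplasm against 1151 in nucleus. The difference from all hosts is therefore given as a description. Without cytoplasm replicate 1 the count was 40, without cytoplasm replicate 2 it was 26, and with mRNA scaling it was 1 (SENP6, named after its value was seen). ATRNL1 had a sum of 11.4 ± 0.3 FPB in cytoplasm and 2.81 ± 0.23 FPB in nucleus (log2 fold change 1.98 ± 0.15, limma adjusted p = 9.64e-08). UBAP2 had 7.88 ± 0.14 FPB in cytoplasm and 3.78 ± 0.83 FPB in nucleus (1.05 ± 0.17, limma adjusted p = 0.000322).

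RNA of the host genes themselves was taken from the gene table, in FPKM, which may include reads from exons inside rings. All 171 hosts had a value there, 165 by their symbol and 6 under the current name of the gene at their position (older symbols such as MLLT4, now AFDN). Of the 165 hosts tested, 95 were higher in cytoplasm and 7 lower (57.6% and 4.24%, against 83.9% and 3.07% of all 13431 genes), with a median log2 fold change of 0.31 against 0.78. With mRNA scaling the split was 7 higher and 133 lower, without nucleus replicate 1 it was 63 and 7, and the lower calls numbered 3 or 4 without cytoplasm replicate 1, cytoplasm replicate 2 or nucleus replicate 2. The 7 lower on the deposited scale were CKAP5, MACF1, ZC3H13, PCM1, PRKDC, DST and KMT2C, 4 of them, CKAP5, MACF1, PCM1 and DST, proteins of microtubules, the cytoskeleton or the centrosome. CKAP5 had 4.05 ± 0.05 FPKM in cytoplasm and 9.78 ± 1.30 FPKM in nucleus (-1.09 ± 0.13, limma adjusted p = 7.05e-08), while its rings summed to 0.635 ± 0.052 FPB in cytoplasm and 0.233 ± 0.137 FPB in nucleus (1.15 ± 0.52, limma adjusted p = 0.0763). KMT2C, a histone methyltransferase, was lower for the host RNA (-0.27 ± 0.12, limma adjusted p = 0.0429) and higher for its rings (1.38 ± 0.27, limma adjusted p = 0.00148). Both tables were normalized separately and no test was made across them. In 152 of the 159 hosts with both values (95.6%), the log2 fold change of the rings was above that of the host RNA, against 75.4% of 923 hosts of the whole table. The hosts were chosen by their number of rings, more of which had a read in cytoplasm than in nucleus. Both percentages are therefore given as a description. ATRNL1 had 1.98 for its rings and 1.49 for its host RNA, and UBAP2 1.05 and 1.18.

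**Figure D5:**
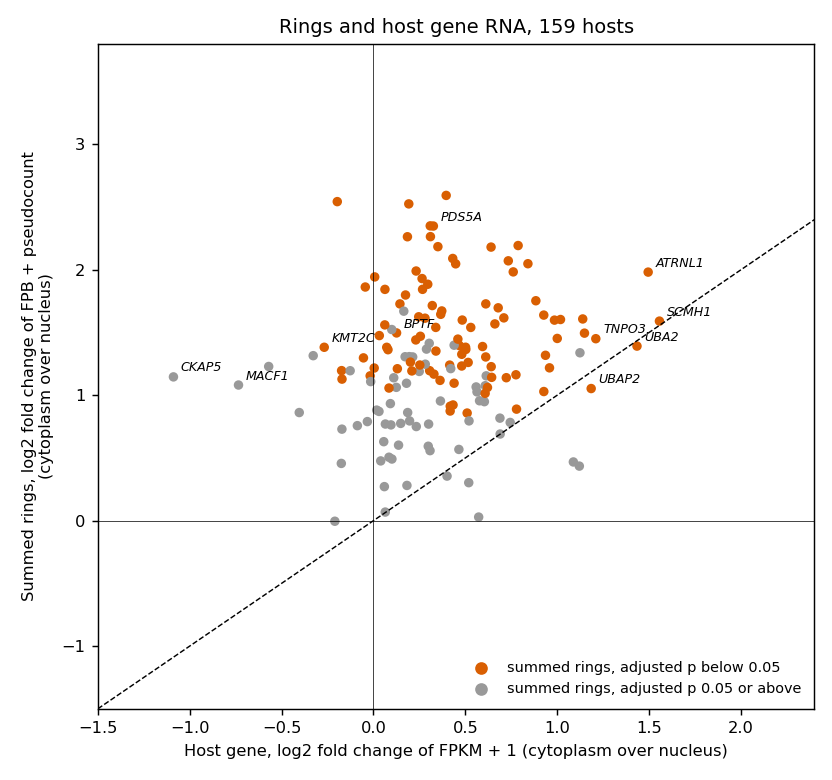
Log2 fold change, cytoplasm over nucleus, of the summed rings (vertical axis, FPB) against that of the host gene (horizontal axis, FPKM) for 159 hosts; dots are hosts, orange where the sum passed the test, and the dashed line marks equal values. 152 hosts lie above the line, on scales that were normalized separately and carry unlike added values.

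By function, lists written with earlier results of these data known held 125 of the 171 hosts, and 46 hosts, UBAP2 and TNPO3 among them, were in none. Counts below are of hosts whose ring sum rose in cytoplasm, and in no list did one fall. That share was 59.1% of the 164 many-ring hosts tested and 44.1% of all hosts tested. For host RNA, 83.9% of all genes tested were higher and 3.07% lower. Of the many-ring hosts tested, 57.6% were higher and 4.24% lower. Among RNA-binding, splicing and translation proteins (XPO1, EIF4G3) ring sums rose in 13 of 16, and host RNA rose in 13 of 16 and fell in 1. Nuclear transport proteins were placed in this list too, with XPO1, RANBP17, IPO7 and NUP98 among its hosts. Among chromatin regulators (BPTF, PHC3) ring sums rose in 14 of 21, with host RNA higher in 8 of 21 and lower in 1. Kinases, phosphatases and small GTPase regulators had 10 of 18, including PTK2 (1.60 ± 0.16) but not TRIO, a guanine nucleotide exchange factor (0.87 ± 0.36, limma adjusted p = 0.0576). Transcription factors and cofactors (MGA, ZMYM4) had 5 of 6, with the highest pooled dominant share in total cells, 56.3%.

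Ubiquitin ligases and deubiquitinases (MIB1, BIRC6) had 7 of 15, and host RNA rose in 4 of 15. Cytoskeleton, centrosome and motor proteins had 8 of 20, with PARD3, a cell polarity protein, at 1.32 ± 0.26 and SYNE2 at 0.73 ± 0.31 (limma adjusted p = 0.0636), and their host RNA rose in 9 and fell in 4 of 20. Membrane trafficking, transport and lipid handling had 6 of 13, with SLC4A7 at 1.01 ± 0.23 and MAN2A1, a Golgi mannosidase, at 1.47 ± 0.32. Synaptic, adhesion and axon guidance proteins had 3 of 7, with ATRNL1 and with DLG1, a synaptic scaffold, at 0.91 ± 0.34 (limma adjusted p = 0.0397). DNA replication, repair and cell cycle proteins had 3 of 5, with DNA2, a nuclease and helicase, at 1.98 ± 0.32 and PDS5A, a cohesin regulator, at 2.35 ± 0.42. DNA2 and PDS5A differed in ring make-up, the dominant ring holding 79.4% of cytoplasm reads in DNA2 and 12.7% in PDS5A. Host RNA rose in 11 of 16 kinases, phosphatases and GTPase regulators and in 3 of 6 transcription factors and cofactors. It rose in 8 of 13 trafficking, 5 of 9 synaptic and 2 of 6 replication and repair hosts, and fell in 1 of the last list. By limma no host of any list passed the share test, and by edgeR ANKRD17, of the RNA-binding list, did.

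The structure of the rings was read from GENCODE, where both ends of 3586 rings (97.6%) fell on exon ends of one transcript. Rings of the many-ring hosts had a median of 5 exons and 709.5 spliced bases, against 4 exons and 540 bases for the 21438 other rings in the same span range. Their median A content was 30.9% against 29.7%, and 11% of them started at exon 2, against 23.5%. In rings that passed the level filter, median A content was 30.4% against 30.6%, and starts at exon 2 were 28.4% against 40.5%. Within a host, the dominant ring was shorter than the median of the host's other rings in 106 of 169 hosts and longer in 63. It had more A than the others' median in 85 hosts and less in 84. Of the dominant rings 19.5% started at exon 2, against 10.6% of the hosts' other rings. Dominant rings were picked by level, and rings that passed the level filter also started at exon 2 more often than all rings. The rule asks for many pairs of exons per host, so these percentages are given as a description.

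Splice sites were reused. In 160 of 171 hosts another ring shared the start or the end of the dominant ring, in 92 hosts both were shared, and in 11 neither was. The start exon of the dominant ring accounted for a median of 38.0% of a host's reads and its end exon for 35.9%. The next ring by level did not overlap the dominant one in 97 hosts, started at the same exon in 36, ended at the same exon in 27, overlapped in part in 6 and lay inside or around it in 2. It was on another scaffold in 3.

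A content and the difference between fractions were set side by side because the study concerns A-rich rings. Across the 116 tested rings with an annotated sequence, A content and the log2 fold change had a Spearman correlation of 0.0031, spliced length 0.035 and GC content -0.17. Across the 895 annotated rings tested, of all hosts and of any span, A content had 0.21 and GC content -0.30. All points come from the same libraries, and the difference between the sets was not tested.

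Some rows lie on alternate scaffolds of the assembly. SDCCAG8 had 13 rows on its primary chromosome and 8 on an alternate scaffold, 4 of these with the span of a primary row. UNC79 had 14 and 11 rows, 6 of the 11 with such a span, so that both hosts fall below 20 rows when primary chromosomes alone are counted. For these hosts 1 ring may stand in the table as 2 rows, and neither entered the share test.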

How the data were processed

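Back-splice values in FPB were deposited per circRNA and library as a signal scaled by a constant of each library. The meaning of FPB is not stated, and it was read as fragments scaled to mapped bases. The authors deposited FPKM per gene in a separate table. Per the labels' protocols, libraries were ribosomal RNA depleted and stranded. Per the submitters' processing notes, the tools were HISAT2 2.1.0, Bowtie, featureCounts 2.0.1, SAMtools 1.9 and Trimmomatic 0.39, and the build GRCh38. Not given in the sources used here: the back-splice caller, the annotation and the strand setting.

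Whole reads were recovered by dividing each FPB value by the value of 1 read (0.0480 to 0.123 FPB per library), and 100% of values came out within 0.05 reads of a whole number. All circRNA reads came to 46002 and 52244 in cytoplasm, 13338 and 15395 in nucleus, and 26114 and 33318 in total cells. No molecular identifiers were available, so exact (Clopper-Pearson) 95% intervals and floors of 3 reads cover counting error only.

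The members and gene lists were chosen with earlier results of these data known. Tests used limma 3.58.1 in R 4.3.3 over all features of a table and all 6 libraries, with Benjamini-Hochberg adjustment and a threshold of 0.05. Rings and sums were fitted with a mean trend on log2(FPB + 0.123) after a filter at a mean of 0.369 FPB, and host RNA on log2(FPKM + 1). Fold changes on these scales understate the change of low features. Shares were fitted as log2 odds with 0.5 reads added and weights from the read numbers. edgeR 4.0.16 on recovered reads, other pseudocounts and filters, mRNA scaling, left-out libraries and a replicate block were alternatives. Named were the hosts with the highest summed level, the highest and lowest shares and the called share, the rings with the highest means and largest called changes, and 2 hosts per list. Exon structures and sequences came from GENCODE release 29. In data simulated for each comparison, 2-fold changes were recovered for 3.30% of changed rings (914 tested), 5% of sums (1028), 83% of host genes (13431) and 16.7% of shares (117), and 4-fold changes for 42.9%, 54%, 99% and 63.6%. Simulated shares varied by counting error alone. Replicate reads of the many-ring hosts' rings gave a chi-square per degree of freedom of 1.67 in cytoplasm, 0.96 in nucleus and 1.55 in total cells. The recoveries for shares may therefore be too high. Some items are not reported here.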

Additional observations from a re-analysis of the deposited data

How the results depend on the processing

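Called rings numbered 26 with a filter at 10 pseudocounts, which tests fewer rings, 1 with no filter (ATRNL1 exons 2 to 5), 0 with mRNA scaling and 2 when each ring kept its own spread (RBM33 exons 3 to 5 and UBAP2 exons 3 to 6, a setting chosen after seeing the data). They ranged from 2 to 50 over the fits without 1 library. Called shares numbered 0 without weights, with cytoplasm and nucleus libraries alone, with the replicate block, and against the next ring (also chosen after seeing the data), 2 by edgeR (UBAP2 and ANKRD17), and 0 in every fit without 1 library. Called sums numbered 20 with no filter and 1 with mRNA scaling, and 26 to 107 without 1 library. Host RNA calls with mRNA scaling were 7 higher and 133 lower, with no filter 3 were lower, and without 1 library 63 to 106 were higher and 3 to 9 lower. Where fewer features or libraries were not the difference, the cause was not tested.

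Median shares with a minimum of 60 reads were 38.2% in cytoplasm and 54.3% in nucleus, and the Simpson concentration was 0.352 in nucleus and 0.347 in total cells. With all of a host's rings in the denominator the medians were 36.5% in cytoplasm, 35.5% in nucleus and 35.8% in total cells. Single libraries gave 46.8% to 49.0% in cytoplasm, 47.1% to 53.3% in nucleus and 46.7% to 48.2% in total cells. The rule would give 6083 rings at 15 rows and 1435 at 30 rows. Of 415 values of single named results under alternatives, 341 kept their direction and call, 55 lost the call and 19 turned in direction, none of which was called after turning and of which the MIB1 ring alone was called before. With mRNA scaling the log2 fold change turned to -0.14 for the MIB1 ring (adjusted p = 0.843) and to -0.61 for the ring of XPO1 exons 4 to 5. Log2 odds ratios of shares turned to 0.19 in ATRNL1 and 0.30 in RERE with all rings in the denominator, and to 0.34 in XPO1 with the dominant ring chosen from all 6 libraries, which takes exons 3 to 5. Against the next ring they turned to -0.63 in BIRC6 and 0.85 in PARD3. In MIB1 and PARD3, whose ratios lay near 0, they turned to -0.12 and 0.30 without weights, -0.067 and 0.13 by edgeR, and -0.023 and 0.036 with the replicate block. Without 1 library the ratio ranged from -0.098 to 0.57 in PTK2, -0.80 to 0.53 in MIB1, -0.85 to 0.23 in MGA and -0.94 to 1.52 in PARD3. Replicate numbers were not shown to pair the libraries: correlations of deviations for cytoplasm with nucleus, cytoplasm with total cells and nucleus with total cells were -0.054, -0.040 and 0.078 over rings and -0.126, 0.059 and 0.307 over host RNA. With the replicate block 52 rings, 0 shares (UBAP2 adjusted p = 0.0503), 95 sums and 98 higher and 7 lower host RNAs were called. Back-splice reads were fewest in the nucleus libraries, 1456 and 1728 over 3675 rings, which limits the precision of nuclear shares.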
